A study of Oryctolagus cuniculus with 16 samples.

Results

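ANKRD1 and CYR61 are 2 of the 13788 gene symbols counted in the intima and media of rabbit basilar arteries 24 h after surgery. Both are known targets of the coactivator YAP, and they were selected on their measured change with ligation, which went in opposite directions, so their change with ligation is given here as a description without a test. Both genes passed the filter on low values in all 4 tissues. The animals were female New Zealand white rabbits, with no genetic modification named, and their age is not given in the sources used here. Rabbits 5 and 6 had both common carotid arteries ligated, which the labels call high flow, and rabbits 3 and 4 had sham surgery, which the labels call normal flow. From each of the 4 rabbits the intima and the media of the straight basilar artery (BA) and of the basilar terminus (BT), the fork at its end, were cut by laser microdissection, with the sections of a tissue pooled into 1 library. This gave 16 libraries in 8 groups of 2 rabbits. Counts on named genes ranged from 2154863 to 17686105 per library.

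YAP and its relative TAZ (gene WWTR1) enter the nucleus when cells are stretched, spread or stiffly anchored, bind TEAD transcription factors and switch on target genes, and the Hippo kinases hold them in the cytoplasm. ANKRD1 encodes an ankyrin repeat protein, also called CARP, that sits on the spring-like part of the sarcomere in striated muscle and also acts in the nucleus. It is best known in the heart and is induced in stretched or injured vessel walls. CYR61, now named CCN1, encodes a secreted matrix protein that binds integrins and acts on adhesion, migration and angiogenesis. It belongs to the CCN family with CTGF (CCN2), another standard YAP target, and NOV (CCN3).

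The labelled tissues held their defining transcripts, with mixing between layers. The summed level of 7 endothelial markers was 1042 to 5170 CPM (counts scaled to a common library size by the TMM method) in the intimal libraries and 39.8 to 867 CPM in the medial libraries. The 4 measured smooth muscle markers summed to 66572 to 117557 CPM in the media and still to 10439 to 73951 CPM in the intima, so an intimal level of either gene is a level in a mixture of cells. These sums were mostly ACTA2, which alone was at 10255 to 113194 CPM over the libraries. The intimal libraries of sham rabbit 3 stood apart from those of rabbit 4, with leptomeningeal markers at 6344 CPM in the BA and 7386 CPM in the BT against 47.5 and 1333 CPM. The ligated BA intima differed likewise, with leptomeningeal markers at 2575 CPM in rabbit 5 and 41.4 CPM in rabbit 6. In rabbit 5 this sum was mostly DCN at 1940 CPM and APOD at 607 CPM. Where a value of a named gene against or within the sham intima is given on its own, its value without rabbit 3 or its range with each rabbit left out is also given. In bulk tissue, fewer cells of a type and less RNA per cell cannot be told apart. No source names the rabbits as coming from separate litters or batches, and sham and ligated tissue came from different rabbits in every comparison.

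ANKRD1 was low in every sham library and far higher in every ligated one. In the BA intima its level was 6.09 and 0.224 CPM in sham rabbits 3 and 4, the second from only 3 counts (95% Poisson interval 0.0462 to 0.655 CPM, counting error only). In ligated rabbits 5 and 6 it was 2284 and 888 CPM. In the BT intima the sham rabbits had 1.22 and 6.0 CPM and the ligated rabbits 932 and 860 CPM. The sham and ligated levels of the intima were thus separated by a wide gap at both locations, and the lowest ligated library was 146 times the highest sham library in the BA and 143 times in the BT.

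The media showed the same picture from a higher starting level. ANKRD1 was at 26.6 and 12.3 CPM in the BA media of sham rabbits 3 and 4 and at 2651 and 2102 CPM in ligated rabbits 5 and 6. In the BT media the sham levels were 5.23 and 14.7 CPM and the ligated levels 1708 and 992 CPM. The lowest ligated library was here 79.1 and 67.6 times the highest sham library in the BA and the BT. Fitted log2 fold changes of ligated over sham were 8.94 (standard error 1.40) and 8.01 (standard error 0.93) for the intima of the BA and the BT and 6.93 (standard error 0.49) and 7.04 (standard error 0.55) for their media, each from 2 against 2 libraries. By size these values ranked 14 of 8974, 29 of 9273, 60 of 8800 and 86 of 8783 genes tested, counted from the largest increase. Leaving out sham rabbit 3 moved the BA intimal value to 12.73, since the remaining sham library held 3 counts, and the BT intimal value to 7.23. Leaving out sham rabbit 4 moved the BT intimal value to 9.48 and the BT medial value to 8.02. Leaving out rabbit 3 also moved the BA medial value to 7.62.

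**Figure D1:**
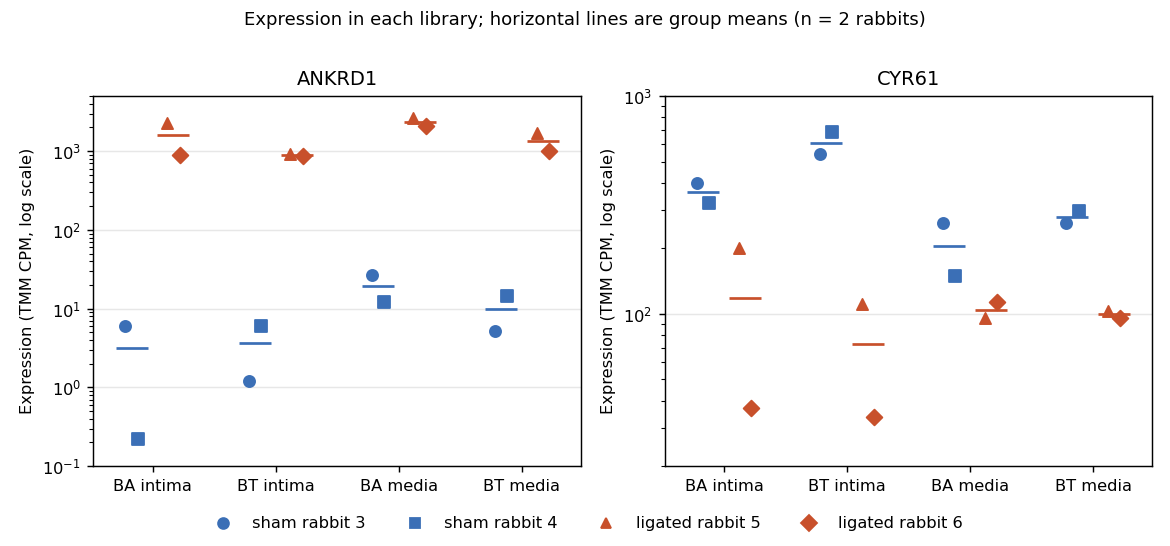
Expression of ANKRD1 (left) and CYR61 (right) in each of the 16 libraries as TMM CPM on a log axis, with sham rabbits in blue, ligated rabbits in orange, a symbol for each rabbit and a line at each group mean. Every ligated library of ANKRD1 lies at or above 860 CPM and every sham library at or below 26.6 CPM, while CYR61 is lower in the ligated than in the sham libraries of each tissue.

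CYR61 was lower after ligation in each tissue. In the BA intima its level was 400 and 322 CPM in sham rabbits 3 and 4 and 200 and 37.0 CPM in ligated rabbits 5 and 6. In the BT intima the sham rabbits had 542 and 682 CPM and the ligated rabbits 111 and 33.8 CPM. Rabbit 6 was the lower of the 2 ligated rabbits at both intimal locations, by 5.41-fold in the BA and 3.30-fold in the BT. The leptomeningeal sum of these libraries was also lower in rabbit 6 in the BA (41.4 against 2575 CPM) and higher in the BT (115 against 18.8 CPM), and its part in the CYR61 gap was not tested. Medial levels of the BA were 261 and 149 CPM in sham and 96.0 and 113 CPM in ligated rabbits, and those of the BT 260 and 296 CPM against 103 and 96.2 CPM. The 2 ligated rabbits were close to each other in the media, within 1.18-fold in the BA and 1.07-fold in the BT.

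The mean CYR61 level of the ligated libraries was 32.8% and 11.9% of the sham mean for the intima of the BA and the BT and 51.1% and 35.8% for their media. The fitted log2 fold changes were -1.60 (standard error 0.72), -3.06 (standard error 0.66), -0.96 (standard error 0.40) and -1.47 (standard error 0.33) in the same order. These decreases were moderate among all genes, with 13.9%, 12.2%, 27.4% and 12.3% of the genes tested at or below the value of CYR61. The intimal values depended on the ligated rabbit: without rabbit 5 they were -3.30 in the BA and -4.20 in the BT, and without rabbit 6 -0.84 and -2.46. Without sham rabbit 3 the values of the BA and BT intima were -1.41 and -3.21, and that of the BA media was -0.48. The BA media thus had the smallest gap, with the lowest sham library 1.32 times the highest ligated one.

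Sham and ligated levels did not overlap in any of the 4 tissues, for ANKRD1 upwards and for CYR61 downwards. Since this contrast chose the genes, the count is a description. Of 7930 genes tested in all 4 tissues, 3.68% were likewise higher in every ligated than in every sham library of each tissue, and 3.11% were lower. Within single tissues, 15.4% and 20.4% of genes did not overlap upwards for the intima of the BA and the BT, and 21% and 25.4% for their media. The downward shares were, in the same order, 20%, 25.6%, 26% and 23.1%. At q below 0.05 over all genes the tests called 0% of genes in either intimal comparison, 0.807% for the BA media and 2.35% for the BT media (edgeR quasi-likelihood F test). The paper, with its own edgeR fits, did report differentially expressed genes in the intima of both locations, so the intimal fits here called fewer. At an unadjusted p below 0.05 they called 5.95% and 11.6% of genes in the BA and BT intima.

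Ordered by group mean, ANKRD1 ran from the ligated BA media (2377 ± 389 CPM, SD, n = 2) through the ligated BA intima (1586 ± 987 CPM), BT media (1350 ± 506 CPM) and BT intima (896 ± 51.1 CPM) to the sham BA media (19.4 ± 10.1 CPM), BT media (9.95 ± 6.68 CPM), BT intima (3.61 ± 3.38 CPM) and BA intima (3.16 ± 4.15 CPM). Neighbours in this order overlapped, except the ligated BT media and BT intima and the ligated BT intima and sham BA media. CYR61 ran from the sham BT intima (612 ± 98.4 CPM), BA intima (361 ± 55.5 CPM), BT media (278 ± 25.4 CPM) and BA media (205 ± 78.8 CPM) to the ligated BA intima (118 ± 115 CPM), BA media (105 ± 12.4 CPM), BT media (99.7 ± 4.94 CPM) and BT intima (72.6 ± 54.9 CPM). The 3 highest groups of CYR61 did not overlap their neighbours among themselves, and all lower neighbours did. Among the ligated groups the BT media and BT intima came last for both genes. The BT intima was thus the group with the highest mean of CYR61 in sham and the lowest in ligated rabbits.

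Markers of other cells that could carry these genes were set beside the levels. Striated muscle, the classic site of ANKRD1, was listed by 8 markers, of which 6 were in the table and 5 had a count, and MYH7 (slow cardiac myosin) was at 0 in every library. In the intima their summed level was 38.8 to 41.8 CPM in sham and 2.66 to 9.92 CPM in ligated rabbits for the BA, and 11.8 to 13.2 and 0 to 10.9 CPM for the BT. Medial sums were 73.5 to 134 and 17.9 to 60.5 CPM for the BA, and 22.6 to 29.9 and 12.8 to 33.3 CPM for the BT. The ligated libraries held ANKRD1 at 860 CPM or more, beside striated marker sums of 60.5 CPM or less. The part of striated muscle in the ANKRD1 level was not tested. Leptomeningeal markers, 7 of 8 in the table, summed to 47.5 to 6344 CPM in the sham and 41.4 to 2575 CPM in the ligated BA intima, and to 1333 to 7386 and 18.8 to 115 CPM in the BT intima. Their medial sums were 15306 to 21079 CPM in sham and 2629 to 3118 CPM in ligated rabbits for the BA, and 4035 to 4094 and 2167 to 4052 CPM for the BT. These medial sums came mostly from APOD, DCN and LUM, at 12291, 6989 and 1711 CPM in the sham BA media of rabbit 3. The transporters SLC6A13 and SLC13A4 were there at 0 and 21.7 CPM. Both transporters were highest in the BT intima of sham rabbit 3, at 169 and 501 CPM. Macrophage markers, 7 of 7 in the table, summed to 77.1 to 753 CPM in the sham and 55.3 to 160 CPM in the ligated intima, and to 54.9 to 246 and 38.5 to 139 CPM in the sham and ligated media. In the BT intima CD14 was at 57.0 and 58.9 CPM in sham and 121 and 54.7 CPM in ligated rabbits, nearly the whole ligated sum. TYROBP there was at 290 and 34.0 CPM in sham and 0 and 0.0823 CPM in ligated rabbits. In the BT media TYROBP was at 31.7 and 12.6 CPM in sham and 18.4 and 51.8 CPM in ligated rabbits. The part of these cells in the lower CYR61 level was not tested. Within the BA intima, CYR61 was at 400 and 322 CPM in sham rabbits 3 and 4, beside leptomeningeal sums of 6344 and 47.5 CPM, and at 200 and 37.0 CPM in ligated rabbits 5 and 6, beside 2575 and 41.4 CPM.

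The layers of a wall were compared within the same rabbit and location, a contrast that did not choose the genes. In sham rabbits ANKRD1 had less RNA in the intima than in the media. Its intimal level was 22.9% of the medial level in the BA of rabbit 3, 23.3% in the BT of rabbit 3 and 40.9% in the BT of rabbit 4. In the BA of rabbit 4 it was 1.83% (95% counting interval 0.369% to 5.55%), from 3 intimal counts. In ligated rabbits the intimal share was 86.1% for the BA and 54.5% for the BT of rabbit 5, and 42.3% in the BA and 86.6% in the BT of rabbit 6. The intima was therefore below the media in 8 of 8 pairs, with a mean log2 ratio of -1.46 and an SD of 1.26 over the 8 pairs (exact permutation test by sign flips, two-sided, p = 0.0078, the smallest that 8 pairs can give, and 0.0156 after Benjamini-Hochberg adjustment over the 2 genes). Without rabbit 3 the mean was -1.32. The test took the 8 pairs as independent, although they came from 4 rabbits and the BA and BT pairs of a rabbit share the animal. Its p is therefore smaller than 4 independent rabbits could give in such a test. Of 10077 genes, 3.56% were lower in the intima in 8 of 8 pairs.

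In the fit across all genes, with rabbit and location as a block, the intimal level of ANKRD1 in sham rabbits differed from the medial level by a log2 value of -2.48 (standard error 0.50, with q = 0.0329 in edgeR's test). The blocks took the BA and the BT of a rabbit as separate, and with both summed per rabbit the value was -2.52 (same test, q = 0.0415). At q below 0.05 the blocked fit had 0.298% of 10077 genes lower in the sham intima and 1.37% different in either direction. The call was lost when any of the 4 rabbits was left out, with q from 0.0595 to 0.138 and values from -2.91 to -2.11, and without the block (-2.10, q = 0.16). In ligated rabbits the difference was -0.63 (standard error 0.43, q = 0.545) and did not pass, where 2.12% of all genes did, and an interval of 2 standard errors does not exclude a difference as large as 1 on the log2 scale. The layer difference of ligated minus sham rabbits, which is built from the change with ligation and was not tested, was 1.84 (standard error 0.65). Without rabbit 3 it was 2.28.

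CYR61 showed no layer difference that passed the test. In sham rabbits its intimal level was above the medial level in 4 of 4 pairs, at 154% and 216% of it in the BA and 208% and 230% in the BT of rabbits 3 and 4. The sham difference was 1.00 on the log2 scale (standard error 0.37, q = 0.263), and it was 1.16 without rabbit 3 (q = 0.503) and passed only when ligated rabbit 5 was left out (q = 0.044). The 2 ligated rabbits went opposite ways. In rabbit 5 the intima was at 208% and 108% of the media in the BA and the BT, and in rabbit 6 at 32.6% and 35.1%. The ligated difference was -0.50 (standard error 0.40, q = 0.62), and it was 0.59 without rabbit 6 and -1.56 without rabbit 5. Over the 8 pairs the mean log2 ratio was 0.26 with an SD of 1.17 (same exact permutation test, p = 0.539), with the intima higher in 6 pairs. Rabbit 6 gave both negative pairs, and without it the mean was 0.86, against 0.061 without rabbit 3.

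**Figure D2:**
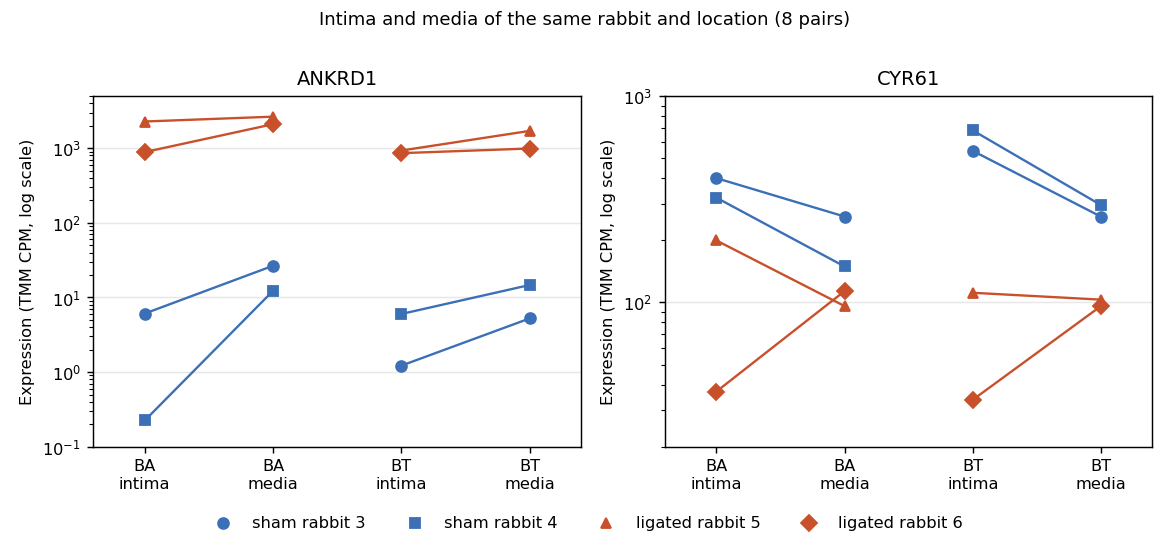
Expression of ANKRD1 (left) and CYR61 (right) as TMM CPM on a log axis, with a line joining the intima and the media of the same rabbit and location, sham rabbits in blue and ligated rabbits in orange. All 8 ANKRD1 lines go up towards the media, and the CYR61 lines go down except in ligated rabbit 6, where the intima was at 32.6% and 35.1% of the media.

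Smooth muscle RNA within the intimal libraries differed between pairs, and its values stand beside these ratios. The intimal level of ACTA2, smooth muscle actin, was 87.7% and 46.9% of the medial level in the BA and 19.2% and 27.6% in the BT of sham rabbits 3 and 4. In ligated rabbits 5 and 6 it was 39.9% and 38.4% in the BA and 14.4% and 71.6% in the BT. MYH11, smooth muscle myosin, and DES, desmin, were set beside it in the same way. In the 2 sham BA pairs ANKRD1 had a lower intimal share than each of the 3 genes. In the sham BT pairs its share was above all 3 in rabbit 4, and in rabbit 3 it was above ACTA2 and MYH11 but below DES (24.1% against 23.3%). In ligated rabbits its share was above ACTA2 and DES in 4 of 4 pairs and above MYH11 in 3 of 4, with MYH11 at 44.9% against 42.3% in the BA of rabbit 6. The part of smooth muscle RNA in the intimal ANKRD1 level was not tested.

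No difference between the BT and the BA passed the test for either gene. The wall shear stress of these locations differs, and the question was whether the targets differed with it within a rabbit. ANKRD1 in the media differed by a log2 value of -0.91 (BT minus BA, standard error 0.36, q = 0.383) in sham and -0.87 (standard error 0.30, q = 0.338) in ligated rabbits. The ligated medial levels of the BT were 64.4% and 47.2% of those of the BA in rabbits 5 and 6, while in sham rabbits they were 19.7% in rabbit 3 and 120% in rabbit 4. Both medial differences passed when genes with low counts were not filtered (q = 0.0429 and 0.0137), a setting under which more genes enter the fit. In the intima the differences of ANKRD1 were 0.53 (standard error 1.52) in sham and -0.68 (standard error 1.07) in ligated rabbits, too wide to place, and the sham value was 4.69 without rabbit 3 (q = 1). At q below 0.05 the fits called 0.566% of genes in the sham and 0.395% in the ligated media, and 0.0104% in each intimal contrast.

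CYR61 was higher in the BT than in the BA intima in both sham rabbits, at 135% in rabbit 3 and 212% in rabbit 4, and lower in both ligated rabbits, at 55.7% in rabbit 5 and 91.4% in rabbit 6. The differences were 0.77 (standard error 0.34, q = 1) in sham and -0.50 (standard error 0.34, q = 0.963) in ligated rabbits and did not pass. Without rabbit 3 the sham value was 1.11. In the media they were 0.49 (standard error 0.32, q = 0.729) and -0.08 (standard error 0.32, q = 1). In the BT media of the ligated rabbits the CYR61 level was 107% and 84.7% of the BA level in rabbits 5 and 6.

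The rest of the pathway was read from 7 lists of 72 genes, of which 66 were in the table and 63 had a count. The lists were chosen with earlier results of these data known, so their counts are descriptive. Across them 0 of 60 genes tested passed in the BA intima and 0 of 60 in the BT intima, against 0% of all genes. At an unadjusted p below 0.05 there were 4 and 9 genes, against 5.95% and 11.6% of all genes. Of 61 genes tested in the BA media 1 rose and 1 fell, and of 58 in the BT media 1 rose and 3 fell, against 0.807% and 2.35% of all genes called in either direction. The calls depended on the fit, since 0 genes passed in the BA or BT media when all 16 libraries shared 1 estimate of spread. Both BA calls were lost when any rabbit was left out. Without rabbit 3, 2 genes passed in the BA intima, CCDC80 and DOCK5, and DOCK5 had 0 counts in the remaining sham library. CCDC80 there was at 154 and 3.66 CPM in sham and 78.0 and 43.3 CPM in ligated rabbits, and its change went from -0.40 to 4.07 (q = 0.0257). In the BT media 1 gene passed without rabbit 6, 2 without rabbit 5 and 7 without rabbit 4.

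The coactivators and their TEAD partners did not pass in any tissue. Of the 8 genes YAP1, WWTR1, TEAD1 to TEAD4, VGLL3 and VGLL4, all were tested and 0 passed in each comparison, and their median log2 fold change was 0.26 and 0.60 for the intima of the BA and the BT and 0.16 and 0.19 for their media, against -0.10, -0.13, -0.15 and 0.03 over all genes tested. YAP1 was detected in all 16 libraries at 179 to 598 CPM and WWTR1 at 170 to 471 CPM. YAP1 in the BA media was at 266 and 232 CPM in sham and 555 and 598 CPM in ligated rabbits, a change of 1.23 on the log2 scale (standard error 0.30, q = 0.122). In the BT media it was at 431 and 489 CPM in sham and 358 and 427 CPM in ligated rabbits (-0.22, standard error 0.30, q = 0.772). VGLL3, a TEAD cofactor, had positive values in the 4 tissues, at levels of 0.586 to 41.1 CPM, with q from 0.216 to 0.905. The TEAD factors had medians over the libraries of 4.95 CPM for TEAD1, 1.88 CPM for TEAD2 and 23.5 CPM for TEAD3, and TEAD4 ranged from 7.72 to 34.0 CPM. VGLL4, which competes with YAP for TEADs, was at 31.1 to 124 CPM.

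Among 14 tested Hippo kinases and upstream regulators 0 passed in each comparison. Their median log2 fold change was -0.06 and 0.18 for the intima of the BA and the BT, -0.01 for the BA media and -0.41 for the BT media, where 11 of the 14 values were negative. MAP4K4, a kinase that can activate LATS, had the highest mean CPM of the list, not adjusted for gene length, and values from 0.14 to 0.70 (q from 0.515 to 0.97). FAT4, a large cadherin of the pathway's upstream arm, had the smallest unadjusted p, with -2.21 (standard error 0.70, q = 0.139) in the BT media.

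Of 20 other YAP/TAZ targets listed, 18 were tested in each tissue. Of these 0 rose and 1 fell in the BA media, 0 rose and 2 fell in the BT media, and 0 passed in the intima. Their median log2 fold change was -0.24 and -0.70 for the intima of the BA and the BT and -0.30 and 0.14 for their media, against the same medians over all genes as above. The values of the list thus lay on both sides of 0 in each tissue.

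AMOTL2, which binds and restrains YAP and is itself induced by it, fell in the BT media from 303 and 587 CPM in sham rabbits to 93.2 and 76.4 CPM in ligated ones (log2 fold change -2.39, standard error 0.39, q = 0.00863). NT5E, the surface enzyme CD73 that makes adenosine, fell there from 39.5 and 49.4 CPM to 5.61 and 1.05 CPM (-3.81, standard error 0.86, q = 0.042), the ligated levels resting on 18 and 9 counts. CCDC80, a secreted matrix protein, fell in the BA media from 806 and 665 CPM to 127 and 157 CPM (-2.36, standard error 0.32, q = 0.0219). In the same comparison 2 of 7 leptomeningeal markers fell, APOD by 3.61 and DCN by 1.72 on the log2 scale (q = 0.00159 and 0.0481), where 0.807% of all genes were called. Their part in the CCDC80 value was not tested. In the BT media 2 of 4 smooth muscle markers fell, MYH11 by 1.70 and LMOD1 by 1.5 (q = 0.0221 and 0.0438), where 2.35% of all genes were called. The other markers, ACTA2 and DES, passed in neither direction. ACTA2 was at 97080 and 67915 CPM in sham and 71063 and 63200 CPM in ligated rabbits. DES was at 656 and 1180 CPM in sham and 1158 and 2609 CPM in ligated rabbits. The part of smooth muscle RNA in the falls of AMOTL2 and NT5E was not tested. The call of CCDC80 was lost whichever rabbit was left out, with values from -2.54 to -2.20. Those of AMOTL2 and NT5E were lost without rabbit 6.

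None of the other CCN genes passed in any ligation comparison. CTGF, the family member most often paired with CYR61 as a YAP readout, had log2 fold changes of 0.97 (standard error 0.65, q = 0.862) and 0.23 (standard error 0.55, q = 0.906) for the intima of the BA and the BT, and 0.99 (standard error 0.28, q = 0.17) and -0.05 (standard error 0.28, q = 0.945) for their media. Without rabbit 3 the intimal values were 1.51 and 0.33. Its levels in the BA media were 3910 and 2534 CPM in sham and 7029 and 5705 CPM in ligated rabbits. They did not overlap, as for 21% of all genes upwards there, and lay in the direction opposite to CYR61. NOV had 2554 and 2872 CPM in sham and 6518 and 4788 CPM in ligated rabbits there (1.07, standard error 0.25, q = 0.104), and its changes were -0.42 and 0.51 for the intima of the BA and the BT and -0.22 for the BT media. Without rabbit 3 the intimal changes were 0.26 and 0.42. Of 5 other CCN genes listed, 4 were in the table.

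**Figure D3:**
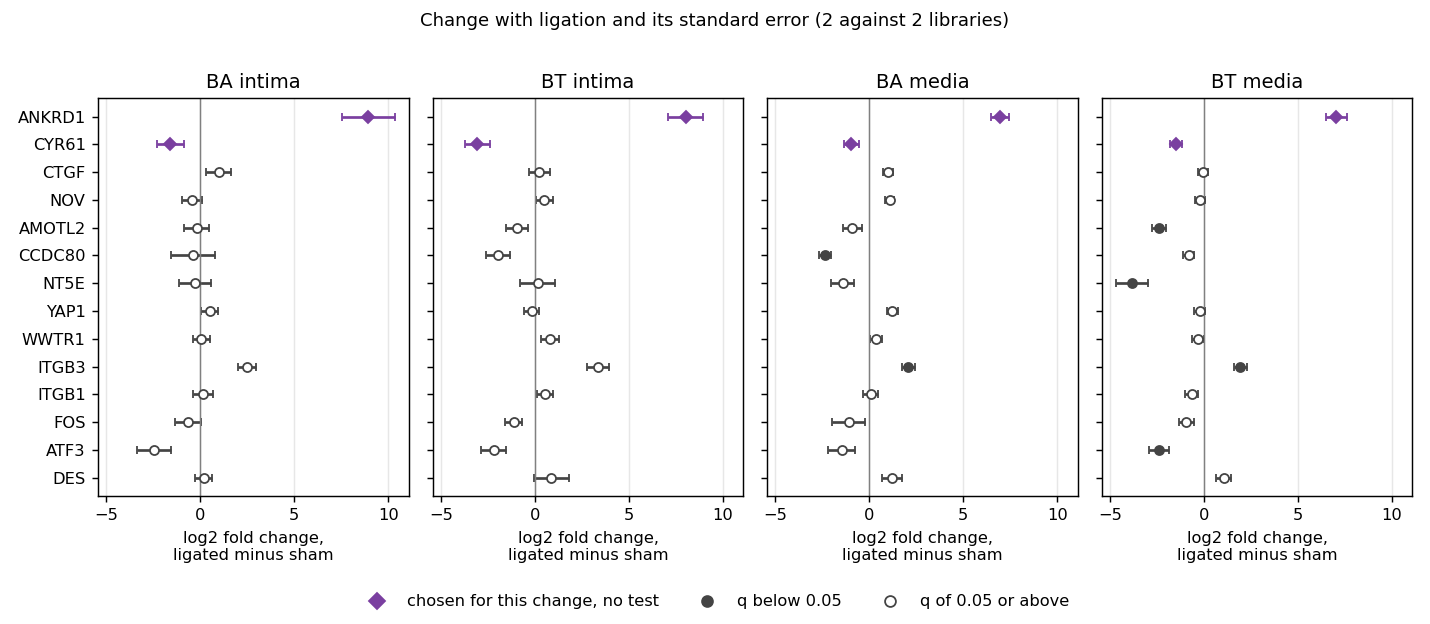
Log2 fold change of ligated over sham libraries, with its standard error, for ANKRD1, CYR61 and a part of the named pathway genes in the 4 tissues (2 against 2 libraries each). MAP4K4, FAT4, the TEAD genes, VGLL3 and VGLL4 are not shown. Diamonds mark the 2 genes chosen for this change, filled circles pathway genes with q below 0.05 and open circles those that did not pass; ANKRD1 lies far to the right in each tissue and CTGF close to 0 in the BT tissues.

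Among the receptors of CYR61, ITGB3 rose in the media. It encodes the beta 3 chain that pairs with ITGAV to bind CYR61 and other matrix proteins. In the BA media it went from 126 and 103 CPM in sham to 494 and 462 CPM in ligated rabbits (2.08, standard error 0.33, q = 0.0366), and at the BT from 128 and 187 CPM to 747 and 453 CPM (1.94, standard error 0.36, q = 0.0171). In the intima its levels were 89.9 and 89.0 CPM in sham and 401 and 593 CPM in ligated rabbits in the BA (2.47, standard error 0.47, q = 0.236), and 30.8 and 81.8 CPM and 481 and 654 CPM in the BT (3.34, standard error 0.59, q = 0.247). Sham and ligated levels of ITGB3 did not overlap in any of the 4 tissues, as for 3.68% of 7930 genes upwards. The intimal values did not pass over all genes, and without rabbit 3 they were 2.50 and 2.80. The call in the BT media was lost without rabbit 5 (q = 0.112). ITGB1, with the highest mean CPM of the list, not adjusted for gene length, had values from -0.66 to 0.55 and did not pass.

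CYR61 is itself an immediate early gene, and other such genes were read beside it. Of 12 listed with SRF and its cofactors, 9 and 8 were tested in the intima of the BA and the BT and 9 and 8 in their media, and 1 fell, in the BT media. That gene was ATF3, a stress-induced transcription factor, which went from 59.0 and 73.2 CPM in sham to 13.1 and 12.0 CPM in ligated rabbits (-2.39, standard error 0.54, q = 0.042), a call lost without rabbit 5 (q = 0.161) or rabbit 6 (q = 0.287). Its values in the intima of the BA and the BT and in the BA media were -2.46, -2.20 and -1.48 (q = 0.759, 0.318 and 0.411), and the intimal ones were -1.32 and -2.22 without rabbit 3. FOS had values of -0.67 and -1.13 in the intima of the BA and the BT and -1.11 and -0.94 in their media, with q from 0.259 to 0.944, and without rabbit 3 the intimal values were 0.89 and -1.09. The list's median was -0.67, -0.65, -0.08 and -1.01 in the same order. Of the ANKRD1 family and its sarcomere partners only DES and, in the BA media, 1 further gene were tested. DES, the intermediate filament desmin, had values from 0.18 to 1.20 and did not pass.

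In the media, 4 pathway genes changed differently with ligation in the BT than in the BA. The difference of the changes, tested as an interaction with rabbit as a block, passed for NOV (-1.28, standard error 0.25, q = 0.0106), CTGF (-1.08, standard error 0.25, q = 0.0405), YAP1 (-1.46, standard error 0.34, q = 0.0496) and CCDC80 (1.54, standard error 0.36, q = 0.0463), of 62 tested, against 0.502% of all genes. For CTGF, NOV and YAP1 the ligated rabbits lay above the sham rabbits in the BA media and among or below them in the BT media. CYR61 and ANKRD1 had differences of -0.57 (standard error 0.45) and 0.04 (standard error 0.46) in the same fit, which were not tested. In the intima 0 of 61 pathway genes passed this interaction, with 4 at an unadjusted p below 0.05, where 0% and 3.44% of all genes did so. Between layers 0 of 62 passed, with 4 at an unadjusted p below 0.05, against 0% and 3.68% of all genes. The 4 medial calls were lost without the block, with q from 0.547 to 0.722. Leaving out 1 rabbit also ended calls, that of NOV without rabbit 5 (q = 0.0825), those of CTGF and YAP1 without rabbit 4, 5 or 6 (q from 0.0504 to 0.214) and that of CCDC80 without rabbit 3, 5 or 6 (q from 0.0703 to 0.13). Those of YAP1, NOV and CTGF were also lost without composition scaling, with q from 0.0911 to 0.205, and that of CCDC80 with RLE scaling (q = 0.0512).

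**Figure D4:**
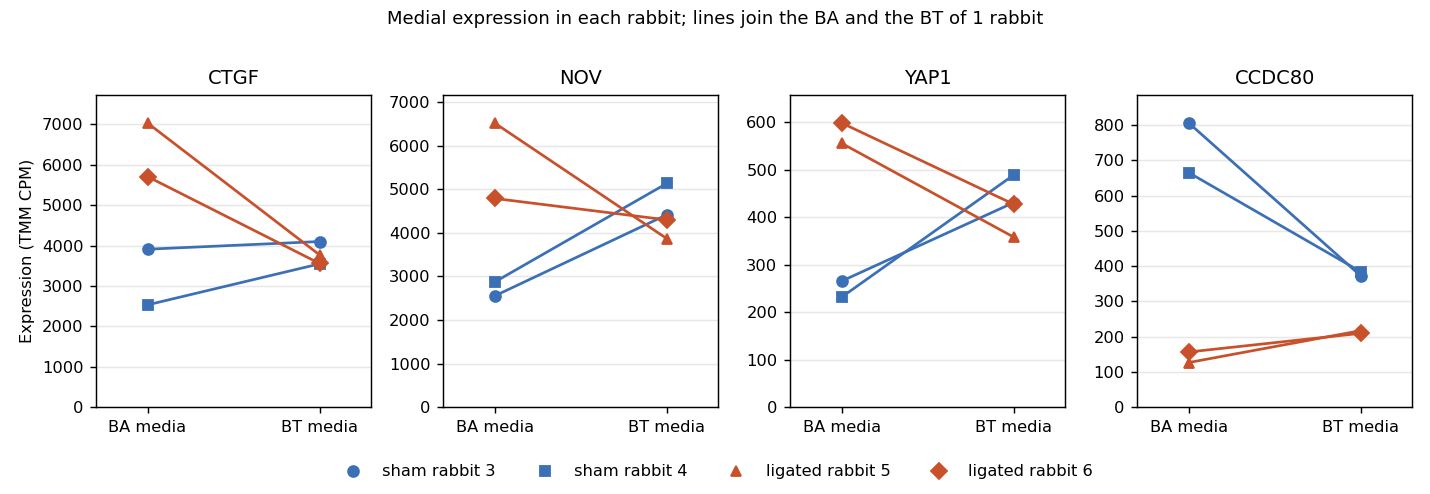
Medial expression of CTGF, NOV, YAP1 and CCDC80 as TMM CPM on linear axes that start at 0, with a line joining the BA and the BT of each rabbit, sham rabbits in blue and ligated rabbits in orange. The ligated rabbits lie above the sham rabbits in the BA media for CTGF, NOV and YAP1 and below them for CCDC80, where they are at 127 and 157 CPM against 806 and 665 CPM.

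The genes whose levels followed ANKRD1 most closely over the 16 libraries were SRA1, ATP5PF, PLS3, HNRNPAB and SDF2L1, with Pearson's r of log2 levels of 0.960, 0.959, 0.946, 0.938 and 0.933. PLS3, which bundles actin filaments, was at 121 to 467 CPM in sham and 982 to 2280 CPM in ligated libraries, and ATP5PF, a subunit of the mitochondrial ATP synthase, at 105 to 171 and 532 to 869 CPM. Within the 8 groups, after each group's mean was removed, r was between -0.57 and 0.53 for these 5 genes. For CYR61 the closest were PSIP1, APLF, SEC62, BEX3 and FRA10AC1, with r from 0.868 to 0.893. PSIP1, a chromatin-bound coactivator, was at 76.6 to 166 CPM in sham and 38.6 to 111 CPM in ligated libraries. Within the groups r was between 0.36 and 0.77 for these 5 genes, highest for PSIP1. These correlations are descriptions over 16 libraries from 4 rabbits that share rabbit, library and flow, among 10077 genes. Ranked by Spearman's rho instead, 1 of the 5 genes was shared for ANKRD1 and 2 of 5 for CYR61.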

How the data were processed

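Per the labels and the study's methods, the authors amplified the RNA by SMART-Seq v4, built libraries with Nextera, aligned single reads to oryCun2 with STAR and counted unique reads per Ensembl gene with featureCounts 1.6.2, with a strand setting although the kit does not mark strand, so overlapping antisense reads cannot be told apart. The deposited values are raw counts for 13788 symbols and 1 entry without a symbol (13.8% to 18.7% of counts), which was left out. In RefSeq's newer rabbit assembly 0 genes overlap ANKRD1 or CCN1.

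Levels are CPM with TMM scaling over 16 libraries. Each ligation comparison was a separate edgeR 4.0.16 fit in R 4.3.3 (quasi-likelihood F test, legacy form, mean above 1 CPM in at least 1 group, Benjamini-Hochberg q below 0.05), as in the study's methods, with CPM in place of RPKM. Location fits had the rabbit as a block and layer fits each rabbit and location, because the tissues came from the same animal. Ratios used a pseudocount of 0.5 CPM. The fits were checked on simulated data with 200 changed genes. Genes were named by a rule: the 2 genes, all YAP/TAZ and TEAD genes, and of each list the genes past the threshold, the highest mean level and the smallest p. Genes named for an interaction or as markers were chosen after their values were seen. ANKRD1, CYR61 and the lists were chosen with earlier results of these data known. Replicates differed by more than counting noise (chi-square per degree of freedom 22.5 to 456). Intervals cover counting error only. Alternatives were RLE or library size scaling, no filter, DESeq2 1.42.0, 1 fit over 16 libraries, summed or unblocked fits, another pseudocount and leaving out each rabbit.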

Additional observations from a re-analysis of the deposited data

Results flagged for a closer look

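Of 10 groups of 4 to 10 values checked for a sample far from the others, 2 held one, where chance gives about 1 in 20 groups. In the 4 ligated intimal libraries, ANKRD1 was at 2284 CPM in the BA of rabbit 5 and at 860 to 932 CPM in the other libraries, a gap of 0.949 of the range. In the 8 pairs of intima and media, the log2 ratio of ANKRD1 in the BA of sham rabbit 4 was -4.14, from 3 intimal counts, and the gap to the next pair was 0.534 of the range.

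CYR61 was higher in the BT than in the BA intima in both sham rabbits and lower in both ligated rabbits. The difference was -1.27 on the log2 scale, and -1.60 without rabbit 3. It was not tested, since it is built from the change with ligation. In the media the BT minus BA difference of the ligation response was past the threshold for YAP1 (-1.46), NOV (-1.28), CTGF (-1.08) and CCDC80 (1.54), each with q below 0.05 in edgeR's test of the interaction with the rabbit as a block.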

How the results depend on the processing

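With 2 rabbits per group, the p-values of the ligation fits rest on the spread between these few animals, moderated over genes. Those of the layer and location fits rest on the spread that the blocks leave, and the sign-flip p on the spread over 8 pairs. A count of 3 or fewer, as for ANKRD1 in the BA intima of sham rabbit 4, leaves its fold open by several-fold. Scaling by library size alone moved the median of all genes from -0.15 to -0.29 for the BA media, from 0.03 to 0.18 for the BT media, and that of the ligation difference between locations in the media from 0.12 to 0.41. ANKRD1 stayed higher and CYR61 lower after ligation in all 4 tissues under every scaling, filter, tool and left-out rabbit tried. This contrast chose the 2 genes and every setting reused the same libraries, so the kept direction is a description only.

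The replicate block mattered for the layer difference of ANKRD1 in sham rabbits, which was -2.10 without it (q = 0.16), and unpaired permutation, an alternative chosen after the data were seen, gave the mean ratio of -1.46 a p of 0.516 (exact permutation test). The pairing comes from the same animals. Without the block 0 pathway genes passed the medial interaction, against 4 with it. It changed no other call of the 2 genes.

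Without the filter on low counts, ANKRD1 passed in the BT against the BA media in sham (-0.91, q = 0.0429) and ligated rabbits (-0.87, q = 0.0137). With library size alone, the change of CYR61 in the BT media was -1.33, and its BT difference in the ligated media turned from -0.083 to 0.078.

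Pathway genes past the threshold numbered 1, 4, 7 and 7 (intima of the BA and the BT, media of the BA and the BT) without the filter, 1, 5 and 7 in the first 3 with DESeq2, and 1, 2, 0 and 0 in 1 fit over 16 libraries, against 0, 0, 2 and 4. Library size alone gave 2 in the BT media and 1 in the medial interaction, and DESeq2 gave 1 in the intimal interaction.

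Leaving out each rabbit in turn, ANKRD1's change with ligation ranged from 8.01 to 12.73 in the BA intima, 7.23 to 9.48 in the BT intima, 6.48 to 7.62 in the BA media and 6.53 to 8.02 in the BT media. For CYR61 it ranged from -3.30 to -0.84 in the BA intima, -4.20 to -2.46 in the BT intima and -1.31 to -0.48 in the BA media. The sham layer difference ranged from -2.91 to -2.11 for ANKRD1 and from 0.84 to 1.16 for CYR61, and the ligated one of CYR61 from -1.56 to 0.59, and the layer difference of CYR61's change from -2.56 to -0.42. The sham BT difference of ANKRD1 ranged from -2.30 to 4.69 in the intima and from -2.35 to 0.26 in the media, where it was -2.35 and passed without rabbit 4. The ligated BT difference of ANKRD1 in the media ranged from -1.10 to -0.64 and passed without rabbit 3 or 4 (q = 0.0117 and 0.00924). The BT difference of ANKRD1's change ranged from -5.37 to 1.62 in the intima and -1.13 to 1.48 in the media. For CYR61 in the media the BT difference ranged from -0.011 to 0.99 in sham and -0.26 to 0.10 in ligated rabbits, and that of its change from -1.08 to -0.072. The mean log2 intima to media ratio of CYR61 ranged from -0.044 to 0.86. Pathway calls ranged from 0 to 2 in the BA intima, 0 to 1 in the BT intima, 0 to 0 in the BA media and 1 to 7 in the BT media, and interaction calls from 0 to 2 in the intima and 1 to 5 in the media. The cause of these shifts was not tested.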
